A study of Rattus norvegicus with 6 samples.

Results

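The MYC, MAX and MXD network is a family of transcription factors that pair through a shared helix-loop-helix leucine zipper domain. It was followed here through 10 genes in replicating and quiescent β-cells of the rat: *Myc*, *Mycn*, *Mycl*, *Max*, *Mxd1*, *Mxd3*, *Mxd4*, *Mxi1*, *Mnt* and *Mlx*. A probe was taken as a member where the gene name in the array files was exactly one of these symbols, without use of any measured value. All 10 genes were found, on 13 of the 45598 probes of the array, among 17760 named genes. *Mycl*, *Max* and *Mxi1* had 2 probes each and the other genes had 1.

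Islets of young adult male Wistar rats were cultured overnight with EdU, a thymidine analogue that is built into newly made DNA, and dispersed. The cells were loaded with Newport Green, a dye for the zinc of insulin granules, and then fixed with paraformaldehyde. Large, granular, dye-rich cells were sorted as β-cells, and separated into replicating (EdU+) and quiescent (EdU-) cells. Each of 3 islet preparations, made from the pooled islets of 4 rats, gave 1 array of each group, hence 3 replicating and 3 quiescent arrays. No genotype or drug separated the groups: both had the same culture, EdU, dye and fixation, and only the EdU signal divided them. EdU+ therefore marks DNA synthesis at some point of the culture, not a cell cycle phase at the time of sorting. The amplified cDNA was hybridized in 1 colour to Agilent rat expression arrays, and levels are given as the log2 values deposited by the authors after background correction and quantile normalization. Every log2 ratio compares replicating with quiescent cells, so that a positive one means a higher level in replicating β-cells. The comparison asks whether cells that had replicated carried another balance of activating and repressing partners of MAX.

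MYC, MYCN and MYCL cannot bind DNA alone. Each pairs with MAX, binds the E-box CACGTG and recruits histone acetyltransferases, and the genes so activated serve ribosome production, metabolism and entry into the cell cycle. MXD1, MXD3, MXD4, MXI1 and MNT compete for MAX, bind the same E-box and recruit the SIN3 histone deacetylase complex. MLX takes the place of MAX for a separate branch, the glucose-sensing factors MLXIP (MondoA) and MLXIPL (ChREBP), and can also pair with some of the repressors. In β-cells *Myc* is known to be low in mature cells and to respond to mitogens and glucose.

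The labels were checked first. *Mki67*, the proliferation antigen, was at 12.51, 12.86 and 12.28 in replicating β-cells of preparations 1, 2 and 3, and at 10.25, 12.23 and 8.20 in quiescent β-cells. *Top2a*, the DNA topoisomerase of dividing cells, was at 10.74, 10.96 and 10.42 against 6.99, 7.19 and 6.66. All 10 genes of the proliferation check had a higher level in replicating β-cells at unadjusted p ≤ 0.05, with a median log2 ratio of 3.50. *Ins1* and *Ins2* were above 15 on every array, and all 10 β-cell markers were well above background in both groups. Their ratios had a median of -0.58, and *Mafa*, a factor of mature β-cells, was the single marker past the unadjusted threshold. Markers of other cells were present as well, and several lists moved with the groups. All 10 fibroblast and stellate cell markers had a positive ratio, 5 of them at unadjusted p ≤ 0.05, and their summed level was between 13.82 and 15.35 in replicating and between 12.47 and 12.67 in quiescent β-cells. For the 6 α-cell markers the summed level was between 14.47 and 16.47 against 12.50 and 14.10, and for the 4 δ- and PP-cell markers between 12.34 and 13.26 against 11.05 and 11.99. All 5 immune cell markers had a positive ratio, 2 of them at the threshold, with a median of 0.90 and summed levels between 11.74 and 12.43 against 11.00 and 12.19. The summed levels of acinar (12.00 to 15.50 against 11.71 to 14.68), duct (14.52 to 14.77 against 14.67 to 15.28) and endothelial markers (11.76 to 13.03 against 12.12 to 13.87) overlapped between the groups. *Gcg*, the α-cell hormone, was at 14.23, 15.52 and 16.39 in replicating and at 12.89, 12.26 and 13.84 in quiescent β-cells, and *Col1a2*, a fibrillar collagen, at 13.63, 12.42 and 13.52 against 10.36, 10.13 and 10.30. *Sst*, *Ppy* and *Vim* had log2 ratios of 1.74, 1.21 and 1.89. All of the α-, δ-, PP-cell and fibroblast markers but 1 of the last were well above background on every array. The part of other cells in the ratios below was not tested, and in bulk samples fewer cells of a type and less RNA per cell cannot be told apart.

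Arrays of the same group differed unequally. Pearson's r over all probes was between 0.967 and 0.986 among the replicating arrays. The quiescent array of preparation 2 stood apart from both other quiescent arrays, with an r of 0.830 with preparation 1 and of 0.654 with preparation 3, while the quiescent arrays of preparations 1 and 3 had an r of 0.867. The quiescent array of preparation 3 was closer to the replicating arrays, with an r of 0.964, 0.943 and 0.969, than to the quiescent arrays of preparations 1 and 2, and ratios of preparation 3 were small, with a median size of 0.23 over all probes against 0.55 and 0.92 in preparations 1 and 2. The quiescent array of preparation 2 also had 1583 spots marked as outliers, against 252 to 299 on the other arrays. Between 84.3% and 89.8% of spots were well above background on replicating arrays and between 88.4% and 98.7% on quiescent ones, the highest share being that of the quiescent array of preparation 2. The levels or ratios of every member are therefore given for each preparation, and without preparation 2 where that moved the ratio by over 1.5 times.

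With limma, blocked by islet preparation, 0 of 45598 probes had a Benjamini-Hochberg adjusted p under 0.05. The smallest was 0.0977, a value shared by several probes, with *Top2a* among them. At unadjusted p ≤ 0.05, 9.58% of all genes passed, 6.64% with a higher and 2.94% with a lower level in replicating β-cells, as did 9.6% of probes. Of the 10 members 0 passed this threshold in either direction, and neither did any of their 13 probes. The same held with the further demand of an absolute log2 ratio of at least 1, which 5.92% of genes met as higher, 2.6% as lower and 8.61% of probes in either direction. The members' adjusted p-values in limma started at 0.475. Their median log2 ratio was -0.27 against 0.02 for all genes, with 4 of 10 ratios positive, against 9121 of all 17760 genes. The ratios of the representing probes, the brighter ones where a gene had several, ran from -1.56 for *Mycl* to 1.01 for *Mlx*.

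**Figure D1:**
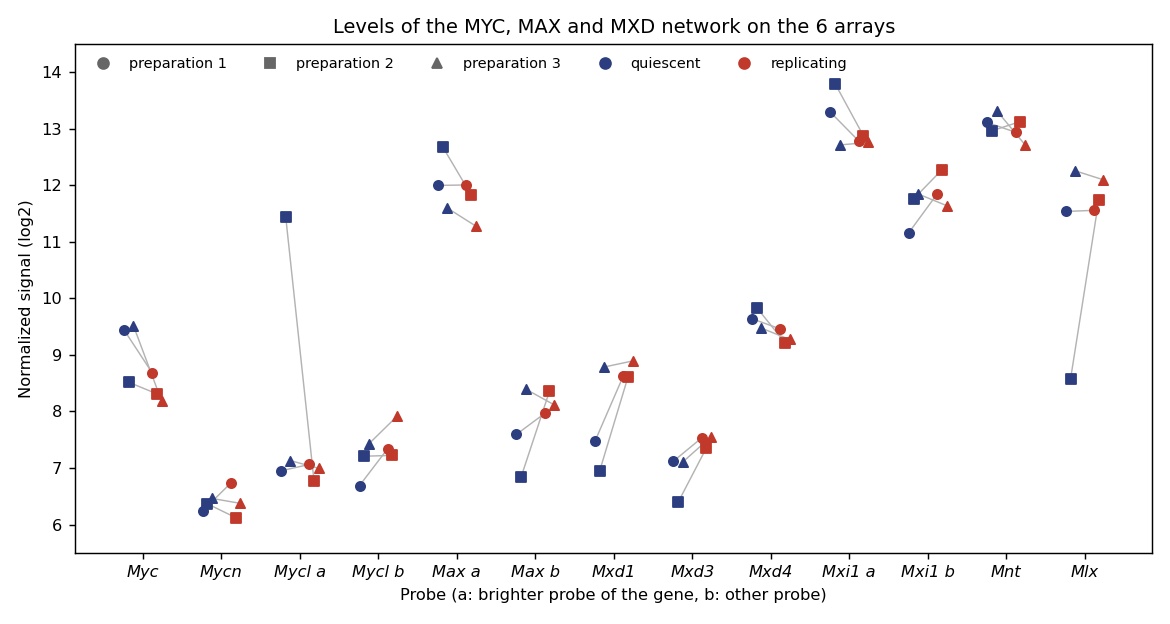
Normalized signal (log2, vertical axis) of the 13 probes of the network on the 6 arrays, with quiescent arrays in blue, replicating arrays in red, a marker shape for each islet preparation and a grey line joining the arrays of a preparation. The quiescent array of preparation 2 lies at 11.44 for *Mycl* a and at 8.57 for *Mlx*, far from both other quiescent arrays, while *Mxd3* is higher on all 3 replicating arrays and *Mxd4* lower. Levels of different probes cannot be compared.

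Among the activators, *Myc* encodes the broadly used MYC protein, and its probe was printed at 2 spots, neither marked as an outlier on any array. The probe lies on the plus strand at chr7:98957687-98957746 of the rat build rn4, which is the build of all probe positions here. The files do not give the exon or the untranslated region of a probe. The first 30 bases of the probe are shown so that the transcript behind the value can be found.
Myc: aacttggacttcaaaaaatgcatgctcaaa
The level of *Myc* was 8.68, 8.31 and 8.18 in replicating β-cells of preparations 1, 2 and 3, and 9.44, 8.52 and 9.51 in quiescent β-cells. With the 2 spots averaged, the replicating array was the lower one in every preparation. In preparation 2 this rested on 1 spot, at 8.34 against 8.77, while the other was at 8.28 against 8.26. The groups overlapped, as the replicating array of preparation 1 was above the quiescent array of preparation 2. Group means were 8.39 ± 0.26 and 9.16 ± 0.56 (SD, n = 3), a log2 ratio of -0.77 (SE 0.36, 95% interval -1.69 to 0.16) or 1.70-fold lower. In limma this gave an unadjusted p of 0.0867 and an adjusted p of 0.475. The ratio was -0.76, -0.21 and -1.34 in preparations 1, 2 and 3. Without preparation 2 it was -1.05 with an unadjusted p of 0.0368 in limma, and without preparation 3 it was -0.48 with a p of 0.297. The probe thus read lower in cells that had made DNA than in cells that had not, by an amount within the error of 3 preparations.

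*Mycn*, the homologue known from embryonic and neural tissue, was close to the background. Its level was 6.73, 6.12 and 6.38 in replicating and 6.24, 6.37 and 6.46 in quiescent β-cells, well above background on 1 of 3 replicating and 2 of 3 quiescent arrays. The other 12 probes of the network were well above background on all 6 arrays. The groups overlapped throughout, and the log2 ratio was 0.05 (SE 0.33, 95% interval -0.79 to 0.90, unadjusted p 0.876 in limma). Without preparation 2 it was 0.20 with a p of 0.637 in limma. The sign of this ratio depended on the processing, with -1.48 and -0.26 after scaling to the 75th percentile.

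*Mycl*, which encodes the third MYC protein, had 2 probes on the plus strand. The brighter one, called a, lies at chr5:142315084-142315143, and the other one, b, at chr5:142316609-142316668, further downstream. Their first 30 bases are printed because the probes gave opposite signs.
Mycl a: aaggcccccaaagtcgtgatcctaagcaag
Mycl b: tttgcctaaaagaaggatcagcctttccag
Probe a was at 7.06, 6.77 and 6.99 in replicating β-cells and at 6.95, 11.44 and 7.13 in quiescent β-cells. A single array, the quiescent one of preparation 2, was high, and the other 5 lay close together. On that array the mean intensity of the spot was 2001, against 51.6 to 130 on the other arrays, and it carried no outlier mark. The log2 ratio of -1.56 (SE 1.01, 95% interval -4.14 to 1.02, unadjusted p 0.182 in limma) rested on it: without preparation 2 the ratio was -0.01 with a p of 0.976. Probe b was at 7.34, 7.22 and 7.92 in replicating and at 6.69, 7.21 and 7.43 in quiescent β-cells. There the array that was high for probe a was not high, and the log2 ratio was 0.39 (SE 0.32, 95% interval -0.44 to 1.21, unadjusted p 0.285 in limma). No direction can be given for *Mycl* from these probes.

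*Max*, the common partner of activators and repressors, also had 2 probes. Both lie on the minus strand of chromosome 6, probe a at chr6:99530023-99530082 and probe b at chr6:99530766-99530825. They are shown for the same reason.
Max a: ggagaaggcaagatcaagtgcccaactgca
Max b: tttgttcctggggaattcacttctcttcct
Probe a was at 12.01, 11.84 and 11.28 in replicating and at 12.00, 12.68 and 11.60 in quiescent β-cells, and the groups overlapped. Its log2 ratio was -0.38 (SE 0.34, 95% interval -1.25 to 0.48, unadjusted p 0.306 in limma), and -0.15 without preparation 2. Probe b was at 7.97, 8.35 and 8.12 in replicating and at 7.59, 6.84 and 8.39 in quiescent β-cells. Here the quiescent array of preparation 2 was the lowest, where it had been the highest for probe a. The log2 ratio of probe b was 0.54 (SE 0.44, 95% interval -0.60 to 1.67, unadjusted p 0.28 in limma) and fell to 0.05 once preparation 2 was left out. A further probe, which the files name by a transcript and describe as *Max*, was outside the rule. It was at 12.44, 12.17 and 12.11 in replicating and at 12.09, 10.13 and 12.38 in quiescent β-cells, with a log2 ratio of 0.71 (SE 0.52, unadjusted p 0.233 in limma) and 0.35, 2.04 and -0.27 in the preparations. Again the quiescent array of preparation 2 was the low one.

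**Figure D2:**
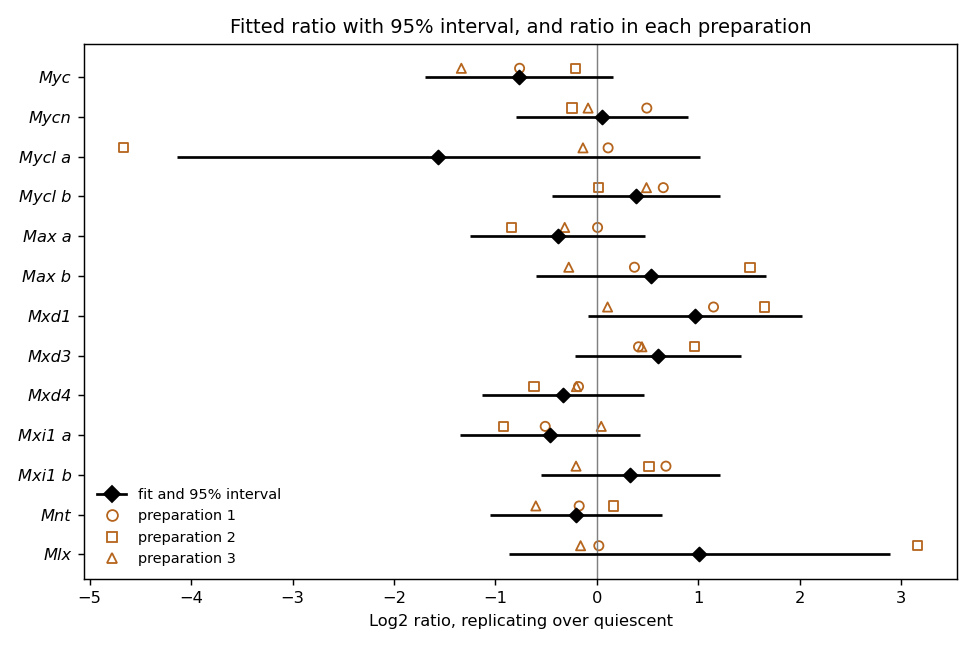
Log2 ratio of replicating over quiescent (horizontal axis) for each of the 13 probes, with the fitted ratio as a diamond, its 95% interval as a line and the ratio of each preparation as an open symbol. Every interval includes 0, and the ratios of preparation 2 lie farthest out for *Mycl* a (-4.66), *Max* b (1.51), *Mxd1* (1.66) and *Mlx* (3.16).

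Among the repressors, *Mxd1* encodes the MAX partner known to be induced as cells leave the cell cycle and differentiate. Its level was 8.62, 8.60 and 8.89 in replicating and 7.47, 6.95 and 8.79 in quiescent β-cells. The 3 replicating arrays lay close together and the quiescent arrays were spread over nearly 2 log2 units, with that of preparation 3 inside the range of the replicating arrays. Means were 8.71 ± 0.16 and 7.74 ± 0.95 (SD, n = 3), a log2 ratio of 0.97 (SE 0.41, 95% interval -0.08 to 2.03) or 1.96-fold higher. This was the smallest p among the members, 0.0646 unadjusted and 0.475 adjusted in limma. The ratio was positive in 3 of 3 preparations, at 1.15, 1.66 and 0.11, but of very unequal size. Without preparation 3 it was 1.40 with an unadjusted p of 0.0228 in limma, and without preparation 2 it was 0.63 with a p of 0.196.

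*Mxd3*, known as the MXD gene expressed in S phase of cycling cells, was at 7.53, 7.35 and 7.55 in replicating and at 7.12, 6.39 and 7.11 in quiescent β-cells. All replicating arrays were above all quiescent arrays, a separation shown by 10.9% of all genes in this direction. The log2 ratio was 0.61 (SE 0.32, 95% interval -0.21 to 1.42, unadjusted p 0.116 and adjusted p 0.482 in limma), with 0.41, 0.96 and 0.44 in the 3 preparations. It stayed positive under all 14 alternatives, between 0.11 and 1.06, and was at its lowest when arrays were scaled to the 75th percentile. Several of the alternatives, such as the fit without block, left the ratio unchanged, so that its sign was fixed there.

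*Mxd4*, described as the member of quiescent and differentiated tissue, went the other way. It was at 9.46, 9.22 and 9.27 in replicating and at 9.64, 9.84 and 9.47 in quiescent β-cells. Every replicating array was below every quiescent array, by a narrow margin between preparations 1 and 3, and 5.75% of all genes were separated in this direction. The log2 ratio was -0.33 (SE 0.31, 95% interval -1.13 to 0.47, unadjusted p 0.336 in limma). It was -0.18, -0.62 and -0.20 in the 3 preparations, -0.19 without preparation 2, and negative under all 14 alternatives, several of which left it unchanged. *Mxd3* and *Mxd4* were the only members whose groups did not overlap, 1 in each direction, and neither difference passed the unadjusted threshold.

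*Mxi1* encodes a repressor made from several first exons, and its 2 probes lie far apart on the plus strand. Probe a runs from position 259511025 to 259526483 of chromosome 1, a span of 15459 bases for 60 bases of probe, and so reaches across an intron near the start of the transcript. Probe b lies at chr1:259549420-259549479, near its far end.
Mxi1 a: gggcacagaaacacagcagtgggagcagca
Mxi1 b: tatgtttagatagggctgggcaaggagaaa
Probe a was at 12.79, 12.88 and 12.76 in replicating and at 13.29, 13.80 and 12.71 in quiescent β-cells. Its log2 ratio was -0.46 (SE 0.35, 95% interval -1.35 to 0.43, unadjusted p 0.24 in limma), and -0.23 without preparation 2. Probe b was at 11.85, 12.27 and 11.64 in replicating and at 11.16, 11.76 and 11.85 in quiescent β-cells, with a log2 ratio of 0.33 (SE 0.35, 95% interval -0.55 to 1.21, unadjusted p 0.382 in limma). In preparations 1 and 2 the probes had opposite signs, -0.51 and -0.92 for probe a against 0.68 and 0.52 for probe b, and in preparation 3 both were near 0. The probes can detect different transcripts of the gene, and which transcripts were present was not measured.

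*Mnt*, the repressor expressed at all stages of the cell cycle, was at 12.94, 13.13 and 12.72 in replicating and at 13.11, 12.96 and 13.32 in quiescent β-cells. The groups overlapped and the preparations did not share a sign. Its log2 ratio was -0.20 (SE 0.33, 95% interval -1.05 to 0.64, unadjusted p 0.565 in limma) and -0.39 without preparation 2, and it turned to 0.01 under either scaling to the 75th percentile.

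*Mlx*, the partner of MLXIP and MLXIPL, was at 11.56, 11.74 and 12.10 in replicating and at 11.54, 8.57 and 12.26 in quiescent β-cells. The quiescent array of preparation 2 was about 3 log2 units below the others, and these overlapped between the groups. The log2 ratio of 1.01 (SE 0.74, 95% interval -0.87 to 2.89, unadjusted p 0.228 in limma) was -0.07 with a p of 0.866 when preparation 2 was left out. Of the further partners, *Mlxip* was at 7.58, 7.52 and 7.65 in replicating β-cells and at 6.30 and 7.21 in quiescent β-cells of preparations 1 and 3. Its log2 ratio was 0.86 (SE 0.46, unadjusted p 0.133 in limma) on the brightest probe. With the median over the probes of *Mlxip* it was -0.0054 (p 0.988 in limma). *Mlxipl*, the sensor that drives lipogenic genes, was at 9.20, 9.28 and 8.47 against 8.94 and 8.60, with a log2 ratio of 0.06 (SE 0.42, unadjusted p 0.891 in limma). The quiescent value of preparation 2 was missing for both of these probes, as the spot was marked as an outlier. Their ratios thus rest on preparations 1 and 3. *Mga*, a MAX partner of the non-canonical Polycomb complexes, was at 7.81, 8.29 and 7.67 in replicating and at 7.16, 8.45 and 7.25 in quiescent β-cells, a log2 ratio of 0.31 (SE 0.34, unadjusted p 0.405 in limma) that was 0.54 without preparation 2.

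The spread of the members was that of the array. The SD of the quiescent arrays was larger than that of the replicating arrays for 11 of 13 probes (84.6%), and for 85.3% of all probes. The quiescent array of preparation 2 was the farthest of its group for 6 of 13 probes (46.2%), and for 43.9% of all probes. Preparation 2 gave the largest ratio in size for 8 of the 13 probes, preparation 1 for 3 and preparation 3 for 2. Median sizes in preparations 1, 2 and 3 were 0.41, 0.84 and 0.20 for these probes, and 0.55, 0.92 and 0.23 for all probes. The sign was shared by all 3 preparations for 5 of 13 probes (38.5%), those of *Myc*, *Mxd1*, *Mxd3*, *Mxd4* and *Mycl* b, and for 36.2% of all probes with a ratio. In preparation 2 the sign of the members' ratios differed with the base composition of the probes. Of the 5 probes with a GC content of 50% or more, 4 had a negative ratio in preparation 2, and of the 8 probes below, 6 had a positive one. In preparation 1 the ratio was negative for 2 of the 5 and 2 of the 8 probes, and in preparation 3 for 3 of the 5 and 6 of the 8. Medians of preparation 2 over all probes were 0.11 at 35 to 40% GC, -0.16 at 40 to 45% and -0.10 at 45 to 50%. They were -0.43 at 50 to 55% and -0.29 at 55 to 60%. Over all probes GC content and ratio had an r of -0.19 in preparation 1, -0.18 in preparation 2 and 0.17 in preparation 3, across probes that are not independent. With the median of each GC class set equal on every array, the log2 ratio was -0.62 for *Myc*, 0.83 for *Mxd1* and 0.84 for *Mxd3*, and again 0 of 10 members passed an unadjusted p of 0.05 in limma.

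Promoters of the members were read because the dimers of the network bind the E-box CACGTG, which reads the same on both strands. The window was 250 bases before to 50 after the start of the gene, from a RefSeq table of the assembly GRCr8 that held 8 of the 10 members, all but *Myc* and *Mycn*. The E-box was found in 4 of these 8 promoters (50%), and in 6.42% of the 33469 promoters of the same length in the table. It lay 33 bases before the start in *Max*, 70 in *Mlx* and 197 in *Mxd4*, with that of *Mnt* in between. The 60 bases around it are given on the strand of the gene, with the E-box in capitals, for *Max* (minus strand, chr6:101395291-101395350), *Mlx* (plus strand, chr10:86519789-86519848), *Mnt* (plus strand, chr10:60197809-60197868) and *Mxd4* (plus strand, chr14:80786557-80786616).
Max: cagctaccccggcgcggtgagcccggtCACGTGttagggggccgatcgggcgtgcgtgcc
Mlx: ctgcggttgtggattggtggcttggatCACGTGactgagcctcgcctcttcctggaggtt
Mnt: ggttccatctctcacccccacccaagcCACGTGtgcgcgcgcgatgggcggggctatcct
Mxd4: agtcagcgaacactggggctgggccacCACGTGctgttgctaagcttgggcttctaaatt
With all preparations the genes with the E-box did not share a direction, with log2 ratios of -0.38, 1.01, -0.20 and -0.33 in this order. Without preparation 2 the ratios were -0.15, -0.07, -0.39 and -0.19, all negative, with unadjusted p-values of 0.713, 0.866, 0.372 and 0.647 in limma. In that fit probe b of *Max* was at 0.05, and the median of all genes was -0.016. With all preparations the ratios of the other 4, *Mxd1*, *Mxd3*, *Mxi1* and *Mycl*, were 0.97, 0.61, -0.46 and -1.56. These became 0.63, 0.43, -0.23 and -0.01 without preparation 2. The lists were counted by gene, and 7.08% of all 27457 genes had the same letters in a promoter. Among genes known to be activated by MYC, they were in 9 of 32 of the nucleolar list (28.1%), 5 of 24 of the metabolic list (20.8%) and 1 of 10 of the cell cycle list (10%). They were also in 2 of 9 genes known to be repressed by MYC (22.2%). A match of letters is no measured binding.

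The partners and targets of the network were read from lists of genes with known roles, each by counts and its median beside those of all genes. A positive ratio was found for 9121 of all 17760 genes. At an adjusted p under 0.05, limma called 0 genes of any list, and the counts below are at unadjusted p ≤ 0.05, which 6.64% of all genes passed in the higher and 2.94% in the lower direction. These shares depended on the preparations: 1.68% of all genes were higher and 0.141% lower without preparation 1, 5.02% and 1.05% without preparation 2, and 14.4% and 9.65% without preparation 3. Counts of the lists in these fits have to be read beside these shares. For genes that bind the network's proteins, the 14 coactivators of MYC had 1 higher and 0 lower and a median log2 ratio of 0.07, which was 0.0025 without preparation 1, -0.14 without preparation 2 and 0.38 without preparation 3. *Actl6a*, a subunit of chromatin remodelling and TIP60 complexes, was at 10.99, 11.03 and 10.84 in replicating and at 9.49, 7.72 and 10.53 in quiescent β-cells, a log2 ratio of 1.70 (SE 0.62, unadjusted p 0.0393 in limma) that was 0.90 with a p of 0.0849 without preparation 2. *Cdk9*, the kinase that releases paused polymerase, had a ratio of -1.06 (p 0.0555) and *Ep400*, the TIP60 complex ATPase, one of 1.35 (p 0.109). Neither of these passed the threshold, and without preparation 2 they were at -0.67 and 0.41. With 1 preparation left out, 0 coactivators were higher without preparation 1, 0 without preparation 2 and 4 without preparation 3, where 1 was lower, *Cdk9* at -1.51 (p 0.0199).

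The list of corepressors, the histone deacetylase complexes that MXD proteins and MNT recruit, had 12 of 13 genes on the array, 3 of them higher and 0 lower, with a median log2 ratio of 0.36, which was 0.079 without preparation 2 and 0.57 without preparation 3. *Sap30*, a SIN3 complex subunit, was at 10.70, 11.00 and 10.73 in replicating and at 8.59, 7.10 and 10.30 in quiescent β-cells. All replicating arrays were above all quiescent arrays, with a log2 ratio of 2.15 (SE 0.69, unadjusted p 0.026, adjusted p 0.475 in limma) and 1.27 without preparation 2. *Rbbp7*, a histone-binding subunit of the same complex, had a ratio of 1.69 (SE 0.59, unadjusted p 0.0337). Without preparation 2, *Rbbp7* was at 0.98 with a p of 0.0735. Without preparation 1, 0 of the 12 corepressors passed.

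Proteins that set the stability of MYC were 14 of a list of 15, with 1 higher and 0 lower and a median of 0.51, which was 0.064 without preparation 2 and 0.78 without preparation 3. The gene past the threshold was *Aurka*, the mitotic kinase known to shield MYCN from degradation. It was at 11.43, 11.51 and 11.39 in replicating and at 7.71, 7.39 and 8.76 in quiescent β-cells. The groups were far apart, with a log2 ratio of 3.50 (SE 0.41, unadjusted p 0.000316, adjusted p 0.173 in limma) and 3.73, 4.13 and 2.63 in the preparations. With the median over the probes of the gene the ratio was 1.61 (p 0.00446). *Aurka* is itself a gene of mitosis. *Ppp2r5a*, a subunit of the phosphatase that acts on MYC, had a ratio of 1.26 (p 0.0922; 0.46 without preparation 2), and *Skp2*, a ubiquitin ligase subunit that targets MYC, one of 0.63 (p 0.103). Without preparation 3 the list had 3 genes higher.

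**Figure D3:**
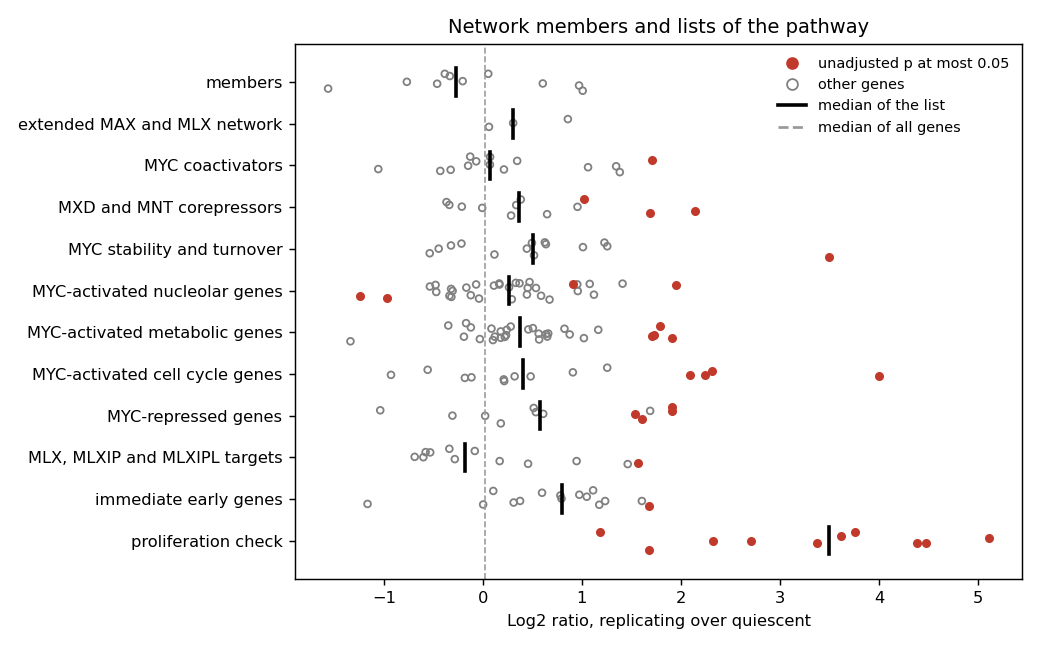
Log2 ratio of replicating over quiescent (horizontal axis) of each gene in the network and in the lists of its pathway, with genes at unadjusted p ≤ 0.05 as filled red points, the median of each list as a black bar and the median of all genes as a dashed line. The 10 members have no filled point and a median of -0.27, while all 10 genes of the proliferation check are filled with a median of 3.50.

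Genes known to be activated by MYC were divided by function. Of the 33 nucleolar and ribosome production genes measured, 20 had a positive ratio, 2 were higher and 2 lower at the threshold, and the median was 0.26, which was 0.095 without preparation 2. *Tcof1*, the nucleolar treacle protein, had a log2 ratio of 1.95 (SE 0.61, unadjusted p 0.0233) and 1.21 without preparation 2. *Bysl*, of the small ribosomal subunit, had one of -1.24 (SE 0.43, unadjusted p 0.0336) and *Pes1*, of the large subunit, one of -0.96 (SE 0.34, unadjusted p 0.0356). Neither *Bysl* nor *Pes1* kept an unadjusted p ≤ 0.05 without preparation 2, at -0.75 (p 0.102) and -0.78 (p 0.0995). Without preparation 1 the list had 0 genes past the threshold in either direction, and without preparation 3 it had 6 higher and 1 lower.

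Of the 30 metabolic genes, 24 had a positive ratio, 4 were higher and 0 lower, and the median was 0.37. *Phgdh* and *Psat1*, enzymes of the serine pathway, led this list. *Phgdh* was at 11.07, 11.02 and 10.98 in replicating and at 9.23, 8.30 and 10.19 in quiescent β-cells, a log2 ratio of 1.78 (SE 0.46, unadjusted p 0.0111). *Psat1* was at 12.42, 12.32 and 12.29 against 10.59, 9.15 and 11.53, a log2 ratio of 1.91 (SE 0.53, unadjusted p 0.0145). In both genes all replicating arrays were above all quiescent arrays, and the quiescent array of preparation 2 was the lowest. Without preparation 1, 0 of the 30 passed the threshold, 5 were higher without preparation 2, and 6 were higher and 1 lower without preparation 3.

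Of the 14 cell cycle genes that MYC is known to activate, 4 were higher and 0 lower, with a median of 0.40, which was 0.61 without preparation 1 and 0.64 without preparation 3. The count higher was 3 without preparation 1, 5 without preparation 2 and 5 without preparation 3, with 0 lower in each. *Cks2*, a subunit of the cyclin-dependent kinases, was at 12.54, 12.95 and 12.35 in replicating and at 8.92, 7.78 and 9.13 in quiescent β-cells, a log2 ratio of 4.01 (SE 0.48, unadjusted p 0.00034, adjusted p 0.173 in limma). *Cks1b*, its homologue and the partner of SKP2, had one of 2.25 (SE 0.31, unadjusted p 0.000632) and *E2f2*, a transcription factor of S phase entry, one of 2.32 (SE 0.42, unadjusted p 0.00249). These 3 genes passed the unadjusted threshold under all 14 alternatives. They are also genes of proliferating cells in general, as are those of the proliferation check.

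Of 12 genes known to be repressed by MYC, 10 had a positive ratio, 4 were higher and 0 lower, and the median was 0.57, which was 0.37 without preparation 1. The count higher was 3 without preparation 1, 5 without preparation 2 and 5 without preparation 3, where 1 was lower. *Ndrg2*, a differentiation gene, was at 9.61, 9.16 and 9.61 in replicating and at 8.22, 7.24 and 8.09 in quiescent β-cells. Its log2 ratio was 1.61 (SE 0.32, unadjusted p 0.00355, adjusted p 0.468 in limma), with 1.39, 1.92 and 1.52 in the preparations. *Gadd45a*, a stress and p53 response gene, was at 12.53, 12.57 and 12.47 against 11.22, 10.64 and 11.11, a log2 ratio of 1.54 (SE 0.33, unadjusted p 0.0049). *Cdkn1a*, the p21 inhibitor of cyclin-dependent kinases, was at 11.77, 11.60 and 12.51 against 10.45, 8.46 and 11.26, a log2 ratio of 1.91 (SE 0.49, unadjusted p 0.0109). The groups did not overlap in any of these 3, and the ratio exceeded 1 in each preparation. *Gadd45a* and *Cdkn1a* are also targets of p53. The markers of fibroblast and stellate, α-, δ-, PP- and immune cells given above moved with the same groups, and their part in these lists was not tested.

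Of the 12 measured targets of MLX with MLXIP or MLXIPL, 5 had a positive ratio, 1 was higher and 0 lower, and the median was -0.18, which turned to 0.091 without preparation 2 and was -0.033 without preparation 3. The gene past the threshold was *Txnip*, the thioredoxin-interacting protein and best known glucose-induced gene of this branch. It was at 8.05, 8.48 and 8.28 in replicating and at 6.37, 5.95 and 7.80 in quiescent β-cells. The replicating arrays were all above the quiescent arrays, with a log2 ratio of 1.57 (SE 0.48, unadjusted p 0.0211, adjusted p 0.475 in limma) and 1.68, 2.53 and 0.48 in the preparations. It was 1.51 with a p of 0.107 without preparation 1, 0.85 with a p of 0.0517 with GC classes centred, and 2.78 with a normexp offset of 0. *Klf10*, a further glucose-induced factor, had a ratio of 1.46 (p 0.118) that was 0.33 without preparation 2, and *Gpd1*, a glycerol phosphate dehydrogenase, one of -0.60 (p 0.12). The other 11 targets of this branch did not pass in either direction.

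Immediate early genes, the class of rapid response genes to which *Myc* is usually counted, were read as 15 genes. Of these, 14 had a positive ratio, 1 was higher and 0 lower at the threshold, and the median was 0.79, with 0.74, 1.78 and -0.19 in preparations 1, 2 and 3. Without preparation 2 the median was 0.02, and without preparation 3 it was 1.65. *Ier3*, a growth factor response gene, had a log2 ratio of 1.68 (SE 0.58, unadjusted p 0.0325), *Junb*, an AP-1 subunit, one of 0.97 (p 0.0516; 0.62 without preparation 2) and *Fosl1*, another AP-1 subunit, one of 1.18 (p 0.0524). Without preparation 2 *Ier3* was at 0.90 with a p of 0.0627. The count of genes higher was 0 without preparation 1, 0 without preparation 2 and 8 without preparation 3, where 1 was lower. *Myc* itself, as the mean of its 2 spots, had a negative ratio in all 3 preparations.

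**Figure D4:**
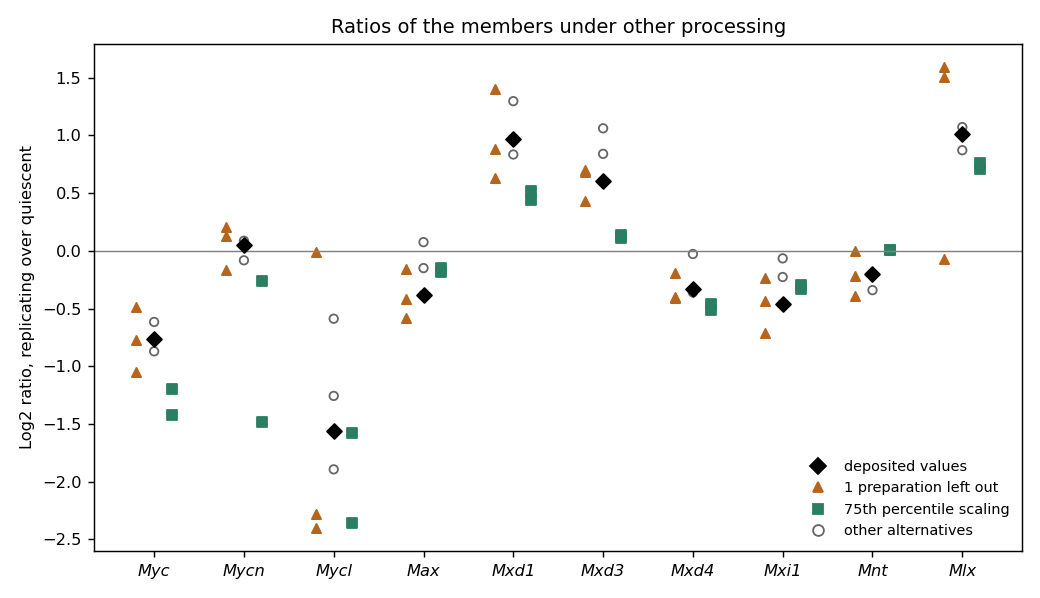
Log2 ratio of replicating over quiescent (vertical axis) of the 10 members in the fit of the deposited values (black diamonds), with 1 preparation left out (orange triangles), after scaling to the 75th percentile (green squares) and under the other alternatives (open circles). *Myc* stays below and *Mxd1* and *Mxd3* above 0 throughout, while the signs of *Mycn*, *Max*, *Mnt* and *Mlx* are not settled. Several of the other alternatives leave the ratio of the deposited values unchanged, so that its sign is fixed there.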

How the data were processed

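The authors amplified and labelled the RNA, scanned 6 arrays on 1 slide and read them with Feature Extraction 10.7.3.1, which records intensity, local background and quality marks per spot. The log2 values used here were deposited by the authors, who had corrected the background with normexp and then quantile normalized the arrays. The deposited intensity values gave the same log2 values within 0.000245 when normexp at an offset of 50 and quantile normalization were applied to them here. Control spots were dropped, outlier spots became missing values, and repeated spots of a probe were averaged, leaving 45598 probes, 44652 with a value on every array. No spot was saturated. The number of arrays limits the precision.

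Each probe was fitted with limma 3.58.1 (R 4.3.3, data.table version 1.17.8; lmFit and eBayes), blocked by islet preparation following the methods of the study, and the fit was tested on simulated data. P-values were adjusted over all probes by Benjamini-Hochberg. A gene is represented by its brightest probe over all 6 arrays. The pairing comes from the labels and methods, and after removal of group means the arrays of a pair correlated across probes with 0.0561, 0.242 and 0.258 (Pearson). Replicates are islet preparations of 4 pooled rats. Counts with a ratio rule use an absolute log2 ratio of at least 1. With 1 slide, no slide block was fitted.

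The members and lists were chosen with earlier results of these data known. Named are all members, the extended network, the 3 genes of lowest unadjusted p of each pathway list, and genes that check the labels. Some genes that meet this rule are not reported here. *Suds3*, *Cip2a*, *Rrp12* and *Scd* of the lists were not found by name. Probe positions and sequences are of rn4; promoters are RefSeq of GRCr8. Alternatives were other values (normexp at offsets of 50 and 0, processed signal, scaling to the 75th percentile), dim probes left out, outlier spots kept, the fit without block or with a variance trend, the median over probes, RefSeq names, each preparation left out and, chosen after seeing the data, GC classes centred.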

Additional observations from a re-analysis of the deposited data

How the results depend on the processing

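Of the members, *Myc* (-1.42 to -0.48), *Mxd1* (0.44 to 1.40), *Mxd3* (0.11 to 1.06), *Mxd4* (-0.51 to -0.03) and *Mxi1* (-0.71 to -0.07) kept their sign under all 14 alternatives. So did *Mycl* (-2.40 to -0.01), though its probe b was positive in the fit of the deposited values. Scaling to the 75th percentile moved the median of all genes from 0.02 to -0.42 with the processed signal and to -0.25 with normexp. Processed signals gave 662 probes called higher and 3193 lower, against 2023 and 1905 in the fit of the deposited values, and turned *Mycn* to -1.48, *Mnt* to 0.0072, *Mycl* b to -0.33, *Max* b to -0.11, *Mga* to -0.12 and *Mlxipl* to -0.025. Scaled normexp values gave 719 probes with an adjusted p under 0.05, 5862 called lower and 2 members lower at unadjusted p ≤ 0.05, *Myc* at -1.19 (p 0.0282) and *Mycl* at -1.58 (p 0.0133), and turned *Mycn* to -0.26, *Mnt* to 0.011, *Mycl* b to -0.11, *Max* b to -0.028, *Mga* to -0.14 and *Mlxipl* to -0.0070. The pairing mattered for the counts: with no replicate block 99 probes had an adjusted p under 0.05 and 878 were called lower, with 0 of 10 members past the threshold in either direction in limma. A variance trend gave 61 probes with an adjusted p under 0.05. *Mlxipl* was at -0.24 with outlier spots kept, *Max* at 0.075 and *Mlxip* at -0.0054 with the median over probes, and *Mycn* at -0.082 with GC classes centred, an alternative chosen after seeing the data. With 1 preparation left out, 518 to 5112 probes were called higher and 63 to 5633 lower, 0 to 84 had an adjusted p under 0.05, and 0 to 1 members were higher (*Mxd1*, without preparation 3) and 0 to 1 lower (*Myc*, without preparation 2). Over these fits *Mycn* ran from -0.16 (without preparation 1) to 0.20, *Mlxipl* from -0.13 (without preparation 1) to 0.25 and *Mlx* from -0.070 (without preparation 2) to 1.59. The cause of these changes was not tested. The median over probes and the RefSeq names apply to genes and gave no probe counts.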
